A study of Mus musculus with 15 samples.

Results

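The guanylate-binding protein (Gbp) genes of the mouse were described in chromatin lists of bone marrow-derived macrophages (BMDMs). The genes were taken by name from the GENCODE M21 annotation of build mm10, and 8 of 21911 protein-coding genes were included. Gbp2, Gbp3, Gbp5 and Gbp7 lie on chromosome 3, and Gbp4, Gbp6, Gbp8 and Gbp9 lie on chromosome 5. No measured value was used to choose them, although earlier results of these data were known when they were chosen. Gbp2b and Gbp10, which are also annotated as protein-coding, and Gbp11, annotated as a polymorphic pseudogene, lie inside the same clusters and are given for comparison.

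Guanylate-binding proteins are large GTPases that assemble on the vacuoles and membranes of intracellular microbes and help open them to the cytosol, where inflammasome sensors act. In macrophages their genes are standard targets of interferon. Short promoter sequences through which interferons act include the interferon-stimulated response element (ISRE), best known from type I interferon, and the gamma-activated site (GAS), best known from interferon gamma. Acetylation of histone H3 at lysine 27 (H3K27ac) marks active promoters and enhancers, whereas trimethylation at lysine 36 (H3K36me3) is laid down over the bodies of transcribed genes. H3.3 is the variant of histone H3 that is deposited outside of DNA replication.

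All targets were profiled by CUT&RUN, in which nuclease tethered by an antibody cuts out the DNA around a target for sequencing. WT cells came from mice with H3f3a fl/fl and H3f3b fl/fl alleles and no Cre. H3.3cKO (cKO) cells carried the same floxed alleles together with LysM cre/cre, in which Cre is expressed from the Lyz2 locus in macrophages and granulocytes, and the study described the deletion of H3f3b as variable. H3.3-HA cells carried an HA tag at H3f3b and were profiled in that genotype only. Cells of every group were grown from the marrow of young adult C57BL/6 mice for 6 to 8 days in medium with 20% L929 conditioned medium, with no stimulus named in the labels. H3K27ac and H3K36me3 were each profiled in WT and cKO cells.

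The 15 samples comprised 10 libraries with region lists, 2 in each of 5 groups, and 5 IgG controls, which were not analysed here as libraries. The libraries held 5365319 to 29988098 tags and 35018 to 61764 regions. For H3K36me3 both cKO libraries held more tags (23782914 and 23503055) than both WT libraries (15086387 and 14027132). For H3K27ac there were 28366343 and 16444864 tags in WT replicates 1 and 2, and 29988098 and 25560110 in cKO. The cKO H3K27ac lists were shorter (35018 and 41444 regions) than the WT lists (61764 and 54630 regions). In cKO H3K36me3 replicate 1 only 19.3% of tags lay in regions, against 46.5% to 50.2% in the other H3K36me3 libraries, and its regions covered 90.7 Mb against 163.5 to 170.5 Mb. The IgG control also differed between genotypes. The part of tag number, list length, tag share and control in the differences below was not tested. Of 8 macrophage marker genes, 8 carried H3K36me3 in both WT and in both cKO libraries, and their summed coverage was 460 to 490 percentage points in WT and 499 to 614 in cKO. H3K27ac lay over 8 of the 8 in both WT and over 7 in both cKO libraries, at a summed 270 to 317 points in WT and 207 to 237 in cKO, with 1 marker higher in cKO and 4 lower. Lyz2, which encodes lysozyme, had 94.2% and 88.5% H3K27ac in WT and 28.1% and 24.4% in cKO. Lyz2 is the locus that carries Cre in cKO cells only, and the part of that allele in its difference was not tested. H3K36me3 coverage of Lyz2 went the other way and was higher in cKO. Among the other markers, H3K27ac was higher in cKO at Cd68 and lower at Adgre1, Itgam and Mertk. At Csf1r, Spi1 and Fcgr1 the genotypes overlapped. The 4 T cell markers (Cd3e, Cd3g, Cd4 and Cd8a) and the 4 fibroblast markers (Col1a1, Col1a2, Pdgfra and Dcn) were at 0 for both marks in all 8 libraries. H3K27ac lay over 1 of 4 neutrophil markers, Elane, at a summed 7.19 to 16.0 points in WT and 7.19 to 23.7 in cKO. It also lay over 2 of 4 B cell, 2 of 4 dendritic cell and 1 of 4 erythroid markers, none of them separated by genotype. H3K27ac coverage of the targeted genes was not lower in cKO. The H3f3a window held an H3K27ac region listed by both WT and no cKO library, and another with the reverse pattern. Coverage of a whole window was not a test of the deletion, which the study reported from PCR, qRT-PCR, RNA-seq and western blots. H3K27ac regions covered 11.9% and 11.9% of the H3f3a window in WT and 22.4% and 19.7% in cKO, and 58.3% and 52.3% of the H3f3b window in WT against 65.2% and 85.5% in cKO.

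The value given for each gene is the percentage of its window, the gene body plus 5 kb upstream, that was covered by called regions in a library. The lists hold positions only, so a wider covered share is a wider called area and not a measured height. Libraries that differ in whether a region was called may differ little in signal. More cells carrying a mark and more of the mark per cell cannot be told apart. A gene was counted as higher in cKO when both cKO libraries exceeded both WT libraries, and as lower in the opposite case. With 2 libraries against 2, the smallest p an exact permutation test can give is 0.333, so no single comparison could reach 0.05.

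The promoters of the chromosome 3 members are shown first, because the H3K27ac regions of that cluster cover their start sites. The sequences are from RefSeq on GRCm38.p6, the same assembly as mm10, and run from 250 bases before to 50 bases after the start. They matched 4 of the 8 members, and Gbp4, Gbp6, Gbp8 and Gbp9 had no entry. Capitals mark matches to GAS (TTCNNNGAA) or to ISRE (GAAANNGAAA) on either strand. All are on the plus strand of chromosome 3, at chr3:142496684-142496983 for Gbp5, chr3:142530086-142530385 for Gbp7, chr3:142559794-142560093 for the first of 2 entries of Gbp3, and chr3:142620413-142620712 for Gbp2.
Gbp5: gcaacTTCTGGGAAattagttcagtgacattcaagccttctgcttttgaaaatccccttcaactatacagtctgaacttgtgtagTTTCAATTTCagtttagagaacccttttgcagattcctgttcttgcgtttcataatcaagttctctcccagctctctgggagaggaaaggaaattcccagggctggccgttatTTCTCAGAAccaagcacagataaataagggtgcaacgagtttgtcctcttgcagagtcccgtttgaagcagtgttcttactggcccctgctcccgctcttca
Gbp7: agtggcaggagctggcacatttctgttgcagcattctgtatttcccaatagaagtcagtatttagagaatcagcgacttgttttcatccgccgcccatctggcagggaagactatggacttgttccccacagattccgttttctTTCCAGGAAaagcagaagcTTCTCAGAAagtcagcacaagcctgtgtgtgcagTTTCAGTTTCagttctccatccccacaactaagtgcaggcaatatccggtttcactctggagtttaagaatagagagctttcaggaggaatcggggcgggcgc
Gbp3: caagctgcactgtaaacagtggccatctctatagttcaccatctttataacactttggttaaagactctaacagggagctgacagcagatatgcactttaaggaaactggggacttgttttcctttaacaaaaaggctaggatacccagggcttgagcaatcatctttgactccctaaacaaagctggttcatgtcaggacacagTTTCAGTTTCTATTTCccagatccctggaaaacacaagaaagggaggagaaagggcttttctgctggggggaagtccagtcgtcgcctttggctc
Gbp2: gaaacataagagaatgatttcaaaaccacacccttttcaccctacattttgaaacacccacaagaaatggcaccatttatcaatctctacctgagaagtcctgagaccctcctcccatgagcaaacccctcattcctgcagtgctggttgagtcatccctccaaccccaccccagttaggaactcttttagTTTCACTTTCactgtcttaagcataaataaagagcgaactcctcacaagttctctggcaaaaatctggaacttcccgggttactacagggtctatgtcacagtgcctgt

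Every one of these 4 promoters held an ISRE match. GAS was matched in 8.30% and ISRE in 3.44% of the 32851 RefSeq promoters of the same length. The Gbp5 promoter held 2 GAS matches, at -245 to -237 and -52 to -44 from the start, and 1 ISRE match at -165 to -156. The Gbp7 promoter held 2 GAS matches, at -106 to -98 and -87 to -79, and an ISRE match at -53 to -44. In the Gbp3 promoter 2 ISRE matches overlapped each other, at -45 to -36 and -39 to -30. The Gbp2 promoter held 1 ISRE match at -59 to -50. The second entry of Gbp3, at chr3:142560106-142560405, held neither. Gbp2b, which has no H3K27ac at its start in any library, also held 1 ISRE match, at -137 to -128. H3K27ac regions covered all 300 bases of the Gbp5, Gbp3 and Gbp2 promoters in all 4 libraries. The Gbp7 promoter was covered in full in WT replicate 1 and in both cKO libraries and not at all in WT replicate 2. These matches describe the letters in these windows and not bound sites.

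The start sites of the Gbp genes were examined for H3K27ac. In the span of 1000 bp before and 100 bp after each start, both WT libraries had a region at 4 of 8 members (Gbp2, Gbp3, Gbp5 and Gbp9), and both cKO libraries at 6 of 8, with Gbp6 and Gbp7 in addition. Gbp7 also had one in WT replicate 1, which covered 437 bp of the span against 581 and 607 bp in cKO. Of 21824 protein-coding genes examined in the same way, 22.9% had a region in both WT and 31.1% in both cKO libraries. No start site of Gbp4 or Gbp8 had H3K27ac in any library, nor had those of Gbp2b, Gbp10 and Gbp11. H3K36me3 was absent from all of these start sites in all 4 libraries.

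Over the whole windows, H3K27ac coverage was higher in cKO at 5 of the 7 members with a region (Gbp2, Gbp3, Gbp5, Gbp6 and Gbp7) and lower at 2 (Gbp8 and Gbp9). The first count was 4 with the gene body only and 4 with regions of at least 1 kb, where Gbp7 was not separated (exact permutation p = 0.667 and p = 1). Across the 12747 protein-coding genes with an H3K27ac region, 17.4% were higher and 38.2% were lower. Gbp4 had no H3K27ac region in any library. The median difference over the 8 members was 2.06 percentage points, against -1.01 points over all tested genes. It was 3.21 without cKO replicate 1 and 0.909 without cKO replicate 2. A region listed by both cKO libraries but by no WT library (cKO-only) lay in 2 member windows, those of Gbp5 and Gbp6, against 17.3% of tested genes. A region listed by both WT libraries but by no cKO library (WT-only) lay in 1, that of Gbp8, against 37.3%. The smallest adjusted p over all genes was 0.599 for this mark (exact permutation test, Benjamini-Hochberg), and 0 genes had an unadjusted p under 0.05.

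Gbp6, whose product is recruited to the vacuole of Toxoplasma, was the member without either mark in WT cells and with both in cKO cells. Its H3K27ac coverage was 0% and 0% in WT and 7.34% and 10.1% in cKO (mean 8.71% ± 1.94, SD, n = 2, exact permutation p = 0.333). The groups did not overlap. Its gene body occupies chr5:105270702-105293698 on the minus strand. A cKO-only region of 2329 bp at chr5:105292031-105294359 covered the start site of Gbp6-201 and ran into the gene, with single regions of 2056 and 2322 bp in the 2 cKO libraries. A second cKO-only region of 1143 bp, at chr5:105305932-105307074, lay 12.2 kb upstream of that start site, outside any window used here.

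**Figure D1:**
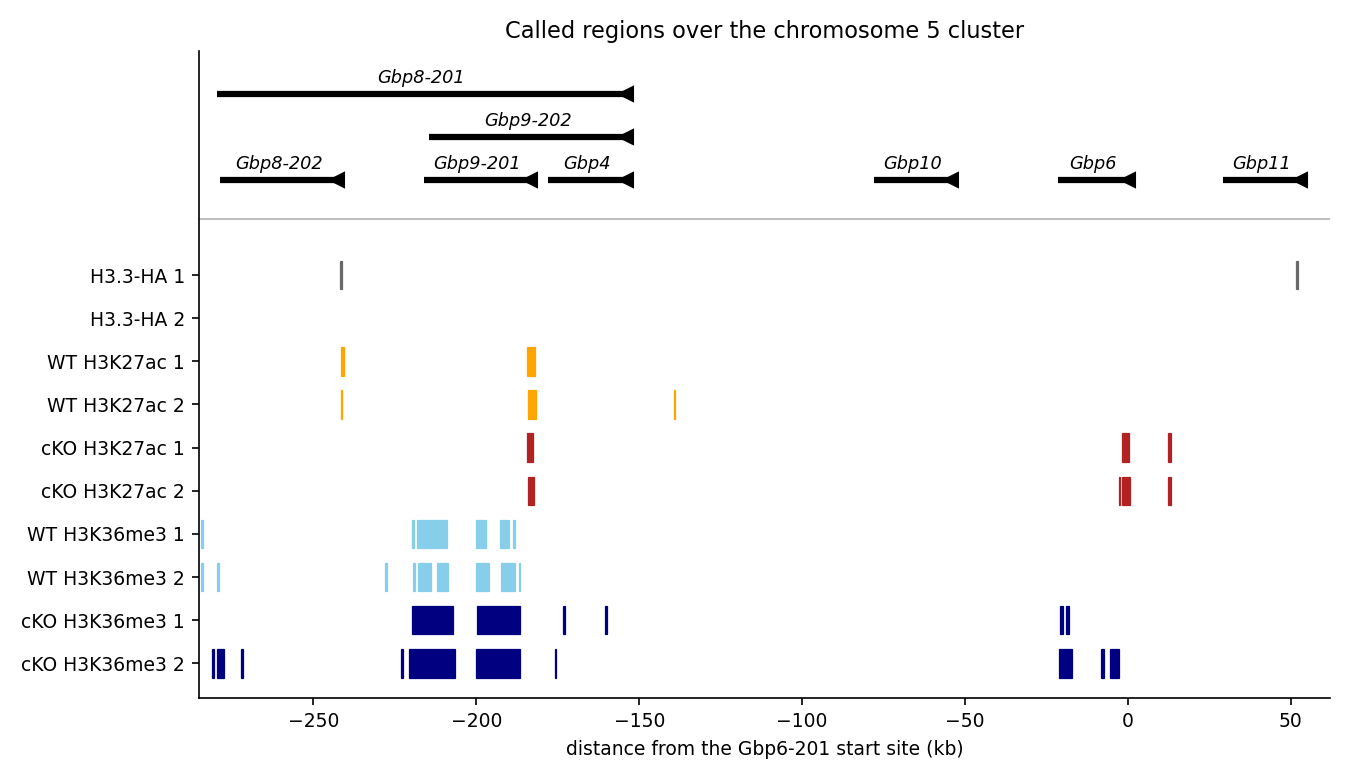
Called regions of each library over the chromosome 5 cluster. The x axis is the position in kb relative to the Gbp6-201 start site, black bars are transcripts with arrowheads at their start sites (all are transcribed to the left), and each coloured block is a called region of 1 library (1 and 2 are replicates). The Gbp6 locus has no H3K27ac or H3K36me3 block in the 4 WT libraries and has both in the cKO libraries, and Gbp9-201 has wider H3K36me3 blocks in cKO.

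H3K36me3 at Gbp6 followed the same order. Coverage was 0% and 0% in WT and 5.91% and 25.6% in cKO (mean 15.7% ± 13.9, SD, n = 2, exact permutation p = 0.333). The cKO libraries differed from each other by more than replicate 1 differed from WT, and the mean difference of 15.7 points was 5.91 without cKO replicate 2 and 25.6 without cKO replicate 1. The cKO-only H3K36me3 region of 3746 bp, at chr5:105272707-105276452, lay in the 3' part of the gene, 17.2 kb downstream of the start. Its full width came from cKO replicate 2, while cKO replicate 1 listed 2 regions there, of 708 and 947 bp. With only regions of at least 1 kb the difference was 11.4 points and the genotypes did not separate. Much of the Gbp6 sequence is shared with Gbp10. Of the 25-base words of the Gbp6 body, 23.7% occurred once in the genome and 66.1% also occurred in Gbp10, while 63.9% of those of Gbp10 occurred in Gbp6. The unique share was 60.7% in the start-site region, 58.2% in the upstream region and 27.7% in the H3K36me3 region. Single reads of Gbp6 and Gbp10 are therefore not fully separable at this word length, and the placement of read pairs was not examined. No region of either mark was listed over Gbp10 in any library.

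Gbp5, which promotes inflammasome activation, had H3K27ac at its start site in all 4 libraries. Coverage of its window was 3.02% and 3.90% in WT and 6.62% and 15.6% in cKO. The means were 3.46% ± 0.623 and 11.1% ± 6.32 (SD, n = 2 each), a ratio of 3.21 (exact permutation p = 0.333). Both cKO libraries were above both WT libraries, with cKO replicate 2 far above replicate 1, and the difference of 7.63 points was 3.16 without cKO replicate 2 and 12.1 without cKO replicate 1. The start-site region measured 1007 and 1301 bp in WT and 1707 and 4189 bp in cKO, and its extra length in cKO replicate 2 ran 3304 bp upstream of the start. A cKO-only region of 524 bp at chr3:142498492-142499015 lay in an intron, 1.59 kb downstream of the start.

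At Gbp3 the H3K27ac region over the start site was wider in both cKO libraries than in either WT library. Coverage was 5.86% and 4.07% in WT and 13.3% and 14.1% in cKO. The means were 4.97% ± 1.27 and 13.7% ± 0.498 (SD, n = 2 each), a ratio of 2.76 (exact permutation p = 0.333). The difference of 8.73 points was several times the spread within either genotype, and it ranged from 7.84 to 9.63 when any single library was left out. The region measured 1066 and 740 bp in WT and 2427 and 2555 bp in cKO, and in cKO it ran 1135 and 1812 bp past the Gbp3-203 start, against 425 and 408 bp in WT.

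Gbp7, a family member also recruited to parasite vacuoles, had the narrowest start-site regions of the chromosome 3 members that had one. Coverage was 2.54% and 0% in WT and 2.62% and 4.13% in cKO (exact permutation p = 0.333). The WT replicate 1 and cKO replicate 1 regions measured 630 and 651 bp, and the cKO replicate 2 region measured 1025 bp, while no region was listed in WT replicate 2. The difference of 2.11 points was 0.838 without WT replicate 2 and 3.38 without WT replicate 1, and with cKO replicate 2 left out it was 1.35.

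Gbp2, which restricts Toxoplasma in macrophages, had the widest H3K27ac share of any member in WT. Coverage was 12.3% and 12.4% in WT and 12.8% and 15.9% in cKO (means 12.3% ± 0.0568 and 14.3% ± 2.19, SD, n = 2 each, exact permutation p = 0.333). The difference of 2.01 points was smaller than the spread between the cKO libraries, and it was 0.464 without cKO replicate 2 and 3.56 without cKO replicate 1. The region reached 1293 to 2195 bp upstream of the Gbp2 start and overlapped the 3' end of Gbp2b in both WT libraries and in cKO replicate 2, but not in cKO replicate 1.

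On chromosome 5, H3K27ac at Gbp9 was a single region over the Gbp9-201 start site, at chr5:105109324-105111864. Coverage of the Gbp9 window was 3.58% and 3.38% in WT and 2.74% and 2.79% in cKO (exact permutation p = 0.333). The region measured 2392 and 2260 bp in WT and 1831 and 1869 bp in cKO, a modest narrowing against the direction seen at the chromosome 3 start sites. The Gbp8 window, which contains the Gbp9 and Gbp4 genes, had 2.49% and 2.12% in WT and 1.40% and 1.43% in cKO (exact permutation p = 0.333). Apart from the Gbp9 start-site region it held a WT-only region of 944 bp, at chr5:105052060-105053003, 1.01 kb upstream of the Gbp8-202 start. An H3.3-HA region of replicate 1, at chr5:105051954-105052587, overlapped it.

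The annotated spans of these 3 genes are nested. In GENCODE, Gbp8 (chr5:105014150-105139540), Gbp9 (chr5:105077630-105139539) and Gbp4 (chr5:105115767-105139586) share almost the same upstream end, so a region inside Gbp9 is also counted for Gbp8. With the RefSeq spans, an alternative chosen after seeing the data, Gbp8 ends before Gbp9. Its H3K27ac was then 1.86% and 1.09% in WT and 0% and 0% in cKO, and its H3K36me3 was 0% and 1.09% in WT and 0% and 6.89% in cKO, which overlap.

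**Figure D2:**
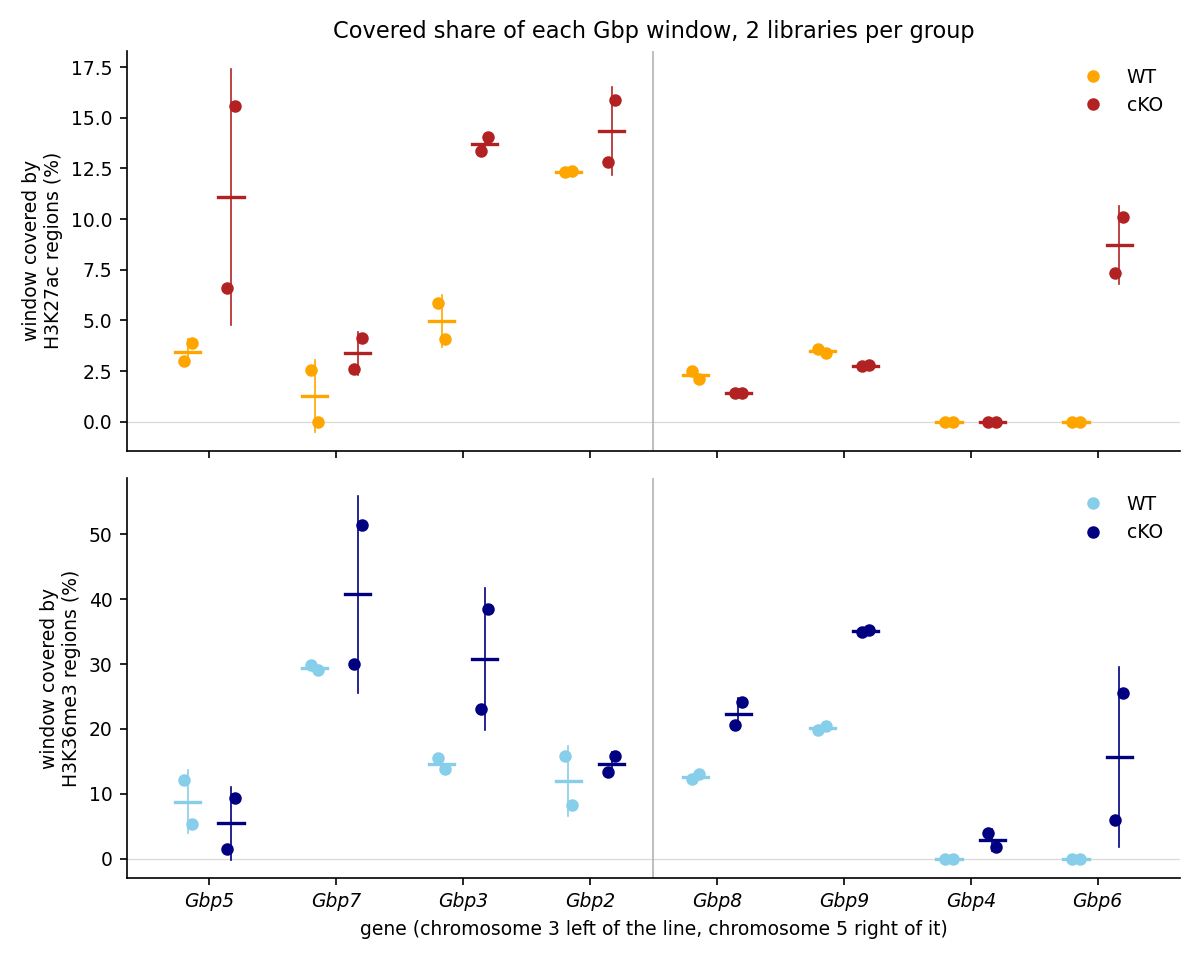
Percentage of each member's window covered by H3K27ac regions (top) and H3K36me3 regions (bottom). Points are the 2 libraries of a genotype, horizontal bars their mean and vertical bars 1 SD, and genes are named on the x axis by chromosome. H3K27ac points of cKO lie above WT at all 4 chromosome 3 genes and at Gbp6, and H3K36me3 points of cKO lie above WT at Gbp7, Gbp3 and all 4 chromosome 5 genes.

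H3K36me3 coverage was higher in cKO at 6 of 8 members (Gbp3, Gbp4, Gbp6, Gbp7, Gbp8 and Gbp9) and lower at none. Of the 11959 protein-coding genes with an H3K36me3 region, 7.84% were higher and 37.7% were lower. The median difference over the members was 10.5 percentage points, against -4.99 points over all tested genes, and it was 4.98 without cKO replicate 2. A cKO-only region lay in 2 windows (Gbp3 and Gbp6) against 8.46% of tested genes, a count that was 7 without cKO replicate 1 and 6 without cKO replicate 2, and a WT-only region lay in 1 (Gbp5) against 23.6%, a count that was 2 when cKO replicate 2 or either WT library was left out. With RefSeq spans 5 members were higher, since Gbp8 was not, and with only regions of at least 1 kb 3 were higher, namely Gbp3, Gbp8 and Gbp9. The smallest adjusted p over all genes was 0.732 (exact permutation test, Benjamini-Hochberg), with 0 genes at an unadjusted p under 0.05.

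The widest H3K36me3 areas of the family lay over Gbp9, another GTPase recruited to parasite vacuoles. Coverage of its window was 19.9% and 20.4% in WT and 34.9% and 35.2% in cKO. The means were 20.2% ± 0.391 and 35.0% ± 0.236 (SD, n = 2 each), a ratio of 1.74 (exact permutation p = 0.333). The 4 libraries fell into tight pairs by genotype, and the difference of 14.9 points ranged from 14.6 to 15.2 when any library was left out. It was as large in cKO replicate 1, the library with the low tag share, as in replicate 2. With the RefSeq span of Gbp9 the values were 37.2% and 38.2% in WT and 60.0% and 62.3% in cKO.

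The 2 wide H3K36me3 areas at Gbp9 were each listed as 1 region in both cKO libraries and as several regions in WT. Over chr5:105072984-105087236, both cKO libraries listed 1 region, of 12373 and 14253 bp. WT replicate 1 listed regions of 501 and 9336 bp there, and WT replicate 2 regions of 501, 2085, 1299 and 3390 bp. The Gbp9 window begins at chr5:105077630, so part of this area, with the 501 bp regions, lies outside it. In WT replicate 1 only the 9336 bp region of this area reached the window. The small cKO regions over Gbp4 also lay in the Gbp9 window. Over chr5:105093582-105107194, the cKO libraries again listed 1 region each, of 13354 and 13449 bp, against regions of 3170, 2521 and 501 bp in WT replicate 1 and of 3951, 4292 and 501 bp in WT replicate 2. The unique share of 25-base words was 51.7% and 60.8% in these areas.

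At Gbp3, H3K36me3 coverage was 15.5% and 13.8% in WT and 23.0% and 38.5% in cKO. The means were 14.7% ± 1.18 and 30.8% ± 10.9 (SD, n = 2 each), a ratio of 2.10 (exact permutation p = 0.333). The groups did not overlap, and the difference of 16.1 points was 8.36 without cKO replicate 2. A merged area of 6072 bp in the gene body was present in all 4 libraries as 4 and 3 pieces in WT and 1 piece in each cKO library. The cKO piece measured 2923 bp in replicate 1 and 5754 bp in replicate 2, and the WT pieces covered 2818 and 2514 bp. Only cKO replicate 2 therefore filled most of the area. A cKO-only region of 1421 bp, at chr3:142571336-142572756, lay 10.9 kb downstream of the Gbp3-202 start in the last part of the gene.

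Over the GENCODE windows Gbp7 had the largest H3K36me3 share of any member in WT, 29.9% and 29.0%, and 30.0% and 51.4% in cKO (means 29.5% ± 0.639 and 40.7% ± 15.1, SD, n = 2 each, exact permutation p = 0.333). The values of cKO replicate 1 and WT replicate 1 were nearly equal, so the size of the difference rested on cKO replicate 2. Without it the difference of 11.3 points was 0.548, and without cKO replicate 1 it was 22.0. In cKO replicate 2 a single region of 12758 bp spanned most of the gene, where the other 3 libraries listed 3, 4 and 3 regions.

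Gbp4 had the lowest H3K36me3, at 0% and 0% in WT and 4.04% and 1.74% in cKO (exact permutation p = 0.333). These were 3 regions of 501 to 664 bp in the 2 cKO libraries, and none was shared between them, so the order at Gbp4 rested on regions near the smallest width listed. The Gbp8 window had 12.3% and 13.0% in WT and 20.6% and 24.1% in cKO (exact permutation p = 0.333), and most of this length lay in the pair of wide areas over Gbp9.

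Gbp2 and Gbp5 did not separate by genotype for H3K36me3. Gbp2 had 15.9% and 8.24% in WT and 13.4% and 15.9% in cKO (exact permutation p = 1). Gbp5 had 12.2% and 5.42% in WT and 1.50% and 9.41% in cKO (exact permutation p = 0.667), the only member with a lower mean in cKO, by -3.35 points. Its window held 2 WT-only regions in introns, of 1302 bp at chr3:142502238-142503539 and of 609 bp at chr3:142518824-142519432. Gbp5 was thus a member with more H3K27ac coverage in both cKO libraries and without more H3K36me3.

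**Figure D3:**
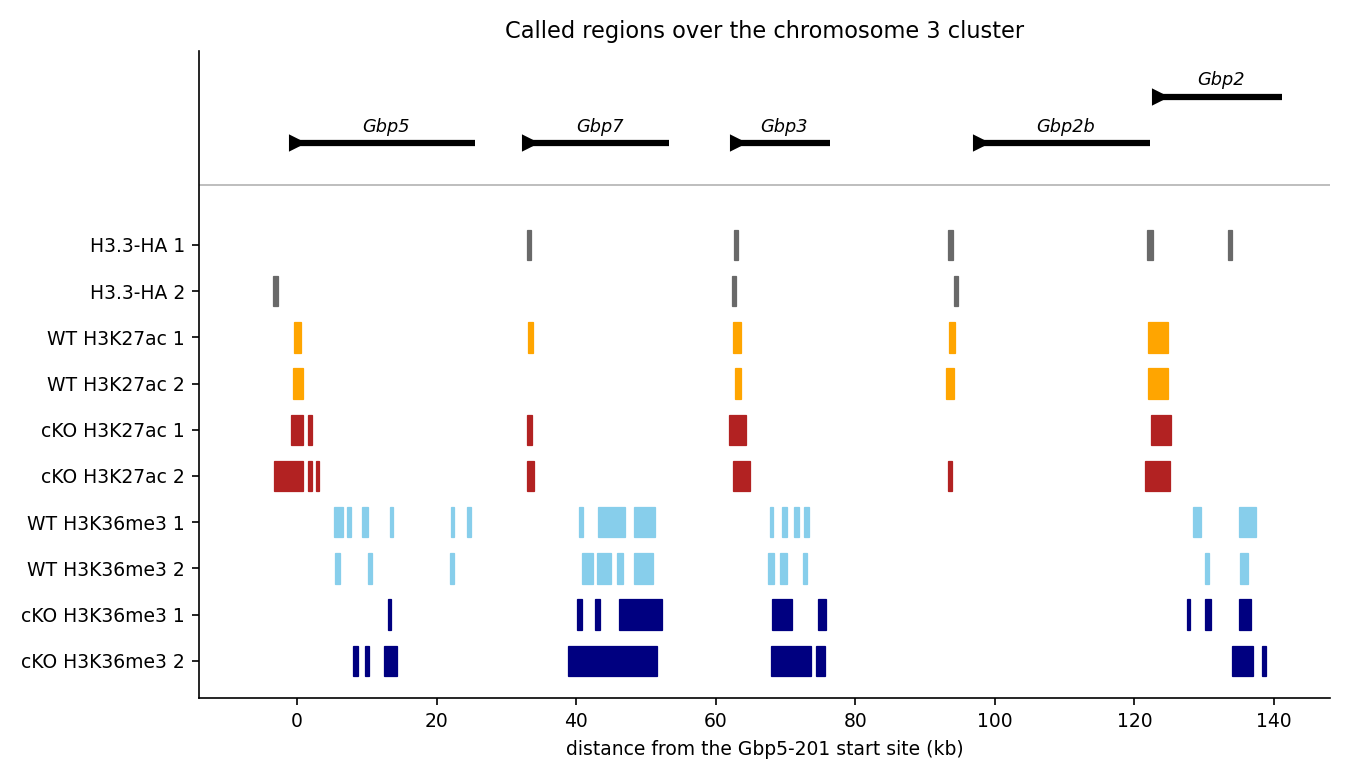
Called regions of each library over the chromosome 3 cluster. The x axis is the position in kb relative to the Gbp5-201 start site, black bars are transcripts with arrowheads at their start sites (all are transcribed to the right), and each coloured block is a called region of 1 library. H3K27ac and H3.3-HA blocks lie at or upstream of the starts, apart from narrow cKO H3K27ac blocks inside Gbp5 and an H3.3-HA block inside Gbp2, H3K36me3 blocks lie inside the genes, and Gbp2b has no H3K36me3 block.

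Along the chromosome 3 genes and Gbp9-201, H3K36me3 began 3.08 to 13.0 kb downstream of the start site, depending on the gene and library. At Gbp3 this distance stayed between 4.38 and 4.88 kb in all 4 libraries, in a transcript of 13.2 kb. At Gbp5 it was 5.34 and 5.41 kb in WT and 13.0 and 8.02 kb in cKO. At Gbp6 it was 17.9 and 2.73 kb in the cKO libraries.

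H3.3-HA was sparse over the Gbp genes. A region in both HA libraries was found in 1 of 8 member windows, that of Gbp3, against 44.1% of all protein-coding genes. The Gbp3 regions measured 501 bp each, 2.76% of the window, shared 255 bp, and lay upstream of the start. In the other members the values of the libraries were 6.29% and 0% at Gbp2, 0% and 1.95% at Gbp5, 2.54% and 0% at Gbp7 and 0.486% and 0% at Gbp8. Gbp4, Gbp6 and Gbp9 had none. Of the family genes that are not members, Gbp2b had 4.14% and 1.71% and Gbp11 had 2.20% and 0%. The HA libraries had the fewest tags, 6951296 and 5365319.

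The H3.3-HA regions of the clusters were set against the regions of both marks. Of 10 such regions, 501 to 782 bp wide, 7 touched a WT H3K27ac region, 6 a cKO H3K27ac region, 0 a WT H3K36me3 region and 1 a cKO H3K36me3 region. Regions were counted by library, and the Gbp3 regions of the HA libraries overlapped each other. The same shares were not computed over all H3.3-HA regions, so the counts are not read as particular to the clusters. In the Gbp7 start-site region, HA replicate 1 covered 630 bp and overlapped WT H3K27ac replicate 1 by 428 bp. The HA region 105051954 to 105052587 near Gbp8 overlapped H3K27ac in both WT libraries and in neither cKO library. No H3.3-HA region lay at Gbp6. H3.3-HA came from a separate genotype, so its overlap with WT and cKO lists is descriptive.

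Taken as whole intervals, both clusters had more H3K27ac length in both cKO libraries than in either WT library. The chromosome 3 interval (chr3:142488978-142638008, 149 kb) was covered by 4.29% and 4.06% in WT and 5.47% and 8.61% in cKO, a difference of 2.87 points (exact permutation p = 0.333). Without cKO replicate 2 this difference was 1.30, and without cKO replicate 1 it was 4.44. The chromosome 5 interval (chr5:105014150-105351472, 337 kb) was covered by 0.964% and 0.967% in WT and 1.43% and 1.73% in cKO, a difference of 0.616 points (exact permutation p = 0.333). The higher cKO coverage of this interval lay at the Gbp6 locus. The Gbp6 window held 0 and 0 bp in WT and 2056 and 2823 bp in cKO, and the region upstream of it was also cKO-only. The Gbp8 window, with Gbp9 and Gbp4 inside it, went the other way, from 3251 and 2761 bp in WT to 1831 and 1869 bp in cKO. The difference between the clusters, chromosome 5 minus chromosome 3, was -2.25 points (exact permutation p = 0.333), and it was -0.829 without cKO replicate 2 and -3.67 without cKO replicate 1. This contrast is in points and starts from unlike levels. The mean went from 4.175% in WT to 7.04% in cKO on chromosome 3 and from 0.965% to 1.58% on chromosome 5. It therefore does not show a larger relative change on chromosome 3.

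For H3K36me3 with all listed regions, the genotypes separated over the chromosome 5 cluster and not over the chromosome 3 cluster. With regions of at least 1 kb they separated over both, by 5.50 points on chromosome 3 and 4.72 on chromosome 5. With lists cut to equal length they also separated over both, by 4.65 and 5.49 points (exact permutation p = 0.333 in each case). The chromosome 5 interval had 4.75% and 5.03% in WT and 8.46% and 11.4% in cKO (means 4.89% ± 0.194 and 9.95% ± 2.10, SD, n = 2 each), a difference of 5.06 points (exact permutation p = 0.333). The chromosome 3 interval had 12.0% and 8.97% in WT and 10.2% and 17.8% in cKO, a difference of 3.48 points (exact permutation p = 0.667) that was -0.316 without cKO replicate 2 and 7.27 without cKO replicate 1. The difference between the clusters was 1.58 points (exact permutation p = 0.667), ranged from -0.731 to 3.89 when single libraries were left out, and was -0.784 with regions of at least 1 kb. The data therefore did not order the clusters by their H3K36me3 difference.

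**Figure D4:**
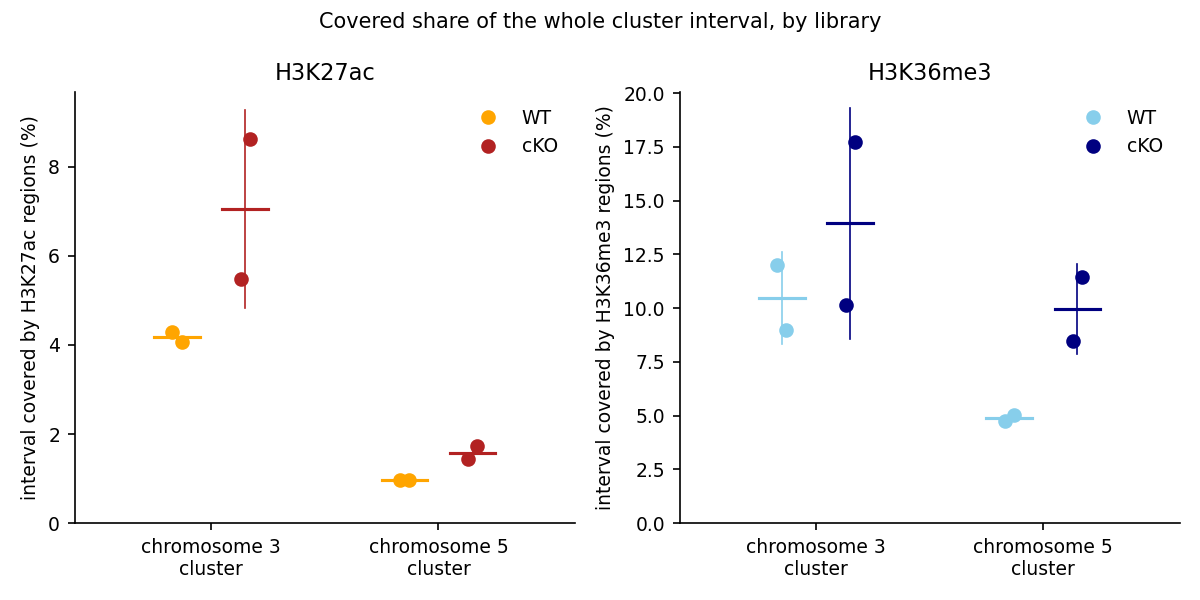
Percentage of each whole cluster interval covered by H3K27ac regions (left) and H3K36me3 regions (right). Points are the 2 libraries of a genotype, horizontal bars their mean and vertical bars 1 SD. The cKO points lie above the WT points except for H3K36me3 on chromosome 3, where cKO replicate 1 (10.2%) lies between the WT libraries.

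Counted by gene, H3K27ac was higher in cKO at 4 of 4 members on chromosome 3 and at 1 of 4 on chromosome 5, where 2 were lower. H3K36me3 was higher at 2 of 4 on chromosome 3 and at 4 of 4 on chromosome 5. The chromosome 5 genes are not separate counts, because the nested Gbp8, Gbp9 and Gbp4 share regions. With RefSeq spans Gbp8 was not higher. With regions of at least 1 kb only Gbp8 and Gbp9 were higher on chromosome 5, and only Gbp3 on chromosome 3. The clusters differed in how much of their sequence is found once in the genome. Of their 25-base words, 83.7% were unique on chromosome 3 and 46.6% on chromosome 5, and by window the share ranged from 75.2% at Gbp5 to 94.0% at Gbp2 on chromosome 3 and from 32.4% at Gbp6 to 73.8% at Gbp4 among the chromosome 5 members. H3.3-HA regions numbered 5 and 3 over the chromosome 3 cluster and 2 and 0 over the chromosome 5 cluster in the 2 libraries.

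The nearest genes on either side of the clusters did not share the order of the Gbp genes. The 12 nearest protein-coding neighbours, 3 on each side of each cluster, lay 31.4 to 654 kb from the cluster intervals. For H3K27ac 0 were higher in cKO and 7 were lower, against 17.4% and 38.2% of all tested genes. For H3K36me3 10 had a region, of which 0 were higher and 6 were lower, against 7.84% and 37.7%. On chromosome 3, Pdlim5 had 31.8% and 27.1% H3K27ac in WT and 6.34% and 3.19% in cKO. On chromosome 5, Zfp951 had 78.0% and 73.9% H3K36me3 in WT and 50.5% and 53.5% in cKO. In both cases the genotypes did not overlap and the cKO values were the lower ones, the more frequent direction among all genes.

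Among the family genes that are not members, Gbp10 and Gbp11 had no region of either mark. Gbp2b, the mouse gene also known as Gbp1, had no H3K36me3 and an H3K27ac coverage of 4.13% and 5.22% in WT and 0% and 4.34% in cKO (exact permutation p = 0.667). Part of this lay upstream of its start, in a region at chr3:142589859-142591250, and the rest was the end of the Gbp2 start-site region.

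Genes that act with the Gbp proteins or control them were counted from a list of 24, all of which had a region of each mark. For H3K27ac 10 were higher in cKO, 7 were lower and 7 overlapped, with a median difference of 0.864 points. Of all tested genes, 17.4% were higher and 38.2% lower for this mark, and 7.84% and 37.7% for H3K36me3. For H3K36me3 5 were higher, 4 were lower and 15 overlapped, with a median of 1.30 points. The 4 immunity-related GTPases, which act with Gbp proteins on vacuoles, were higher in H3K27ac at 4 of 4. The annotated span of Igtp lies almost wholly inside that of Irgm2, so regions in the shared part were counted for both. Iigp1 had 0% and 0% in WT and 10.0% and 17.4% in cKO, and Irgm1, Irgm2 and Igtp differed by 7.04 to 7.79 points. None of the 4 separated for H3K36me3.

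Of 13 regulators, 5 were higher and 4 were lower for H3K27ac, and 3 were higher and 4 were lower for H3K36me3. The largest H3K27ac differences on the whole list were those of Gsdmd, the pore-forming gasdermin D, with 16.3% and 12.9% in WT and 23.8% and 44.9% in cKO, and of 3 genes that were lower. These were Jak1, a receptor kinase, with 29.6% and 30.5% in WT and 8.97% and 11.7% in cKO, Casp1 at 57.4% and 39.7% against 24.9% and 35.1%, and the interferon gamma receptor gene Ifngr1 at 60.7% and 46.0% against 34.7% and 35.8%. For H3K36me3 the largest differences were at Irf9, with 87.0% and 89.8% in WT and 48.5% and 54.4% in cKO, and at Jak2, with 62.7% and 65.2% in WT and 20.6% and 46.5% in cKO. Ifngr2 and Irf8 were higher, by 8.70 and 7.13 points. The 7 inflammasome genes had 1 higher and 3 lower for H3K27ac, and 2 higher and 0 lower for H3K36me3.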

How the data were processed

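CUT&RUN region lists of 10 libraries were analysed. The authors trimmed paired-end reads with cutadapt, aligned them to mm10 with Bowtie2 and called regions in each library separately with HOMER findPeaks in histone style against an IgG control (tools per the labels and the study's methods, and versions not given in the sources used here). Per the file headers, peaks of 500 bp at least 1000 bp apart and at least 4-fold over control were joined to regions of varying length. Each deposited list holds a start and end per region and a score that is the same in every row, so neither height nor p-value entered any value here. The differential analysis of the study rested on read counts, which were not used here.

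Coverage of each gene window (GENCODE M21, body plus 5 kb upstream) was computed for 21911 protein-coding genes on chromosomes 1 to 19, X and Y, with coordinates written 1-based. Genes with a region of the mark in at least 1 of its 4 libraries were tested. WT and cKO were compared by a two-sided exact permutation test over libraries with Benjamini-Hochberg adjustment over all tested genes. Groups and replicates came from the labels, which call the replicates biological and do not name the animals. The lists of one mark were merged, and a merged region counted for a gene when it overlapped the window by at least 1 bp. Uniqueness was the share of 25-base words found once in the RefSeq GRCm38.p6 genome on either strand, 25 bases being the read length of the study. Reads were paired, and this share does not measure where a pair could be placed. Tools were Python 3.11.15, numpy 2.4.6, pandas 2.3.3, numba 0.67.0 and matplotlib 3.10.9. Coverage and calls were tested on simulated lists. The genes, gene lists and tests were chosen with earlier results of these data known. Named genes were all members, the other family genes, the neighbours, and per mark the 4 listed pathway genes with the largest mean difference among those whose genotypes did not overlap. The number of libraries, 2 per group, limits the precision. Alternatives were other windows, wide regions only, lists cut to equal length, a 500 bp minimum, a replicate block, RefSeq spans and leaving out single libraries.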

Additional observations from a re-analysis of the deposited data

How the results depend on the processing

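For the counts, medians, cluster differences and cluster contrasts, 17 results in all, 168 values were recomputed. Of these, 145 were classed as the same, 19 as moved and 4 as reversed. Those classed as the same kept their sign and, for counts, stayed within 1.5 times, but the size of a difference could still change. The size of some differences that kept their sign depended on 1 library. The median H3K27ac difference of 2.06 points was 0.909 without cKO replicate 2 and was classed as the same. The median H3K36me3 difference of 10.5 points was 4.98 without cKO replicate 2 and was classed as moved. For the differences of single members, 6 of 160 values changed sign, all at members whose genotypes overlapped. The Gbp2 H3K36me3 difference of 2.60 points became -0.165 with regions of at least 1 kb and -1.21 without WT replicate 2. That of Gbp5, -3.35, became 0.862 with regions of at least 1 kb, 0.402 with lists cut to equal length, 0.0390 without WT replicate 1 and 0.601 without cKO replicate 1. With regions of at least 1 kb, members with a cKO-only region numbered 1 for H3K27ac and 1 for H3K36me3, those with a WT-only region 0 for either mark, those higher in H3K36me3 numbered 3, those with H3.3-HA in both libraries 0, and the H3K36me3 cluster contrast was -0.784 points. With the gene body only, members with H3.3-HA in both libraries numbered 0. With 20 kb upstream, members with a WT-only H3K36me3 region numbered 2. With lists cut to equal length, those with a WT-only H3K27ac region numbered 0. Leaving out 1 library in turn gave 2 to 4 members with H3.3-HA, 2 to 7 with a cKO-only and 1 to 2 with a WT-only H3K36me3 region, 0 to 1 lower in H3K36me3, a median H3K36me3 difference of 4.98 to 13.2 points, a chromosome 3 H3K36me3 difference of -0.316 to 7.27 and an H3K36me3 contrast of -0.731 to 3.89. Fewer libraries make the cKO-only and WT-only rules easier to meet by construction, and for the other settings the cause was not tested. WT and cKO share replicate numbers, but same-numbered libraries deviated together with a correlation of -0.10 for H3K27ac and 0.10 for H3K36me3 over genes in only 2 pairs, so the numbers were not taken to pair them. With a replicate block the cluster differences kept their values, with exact p = 0.5 where all pairs agreed in sign (chromosome 3 H3K27ac 2.87, chromosome 5 H3K27ac 0.616, chromosome 5 H3K36me3 5.06) for the H3K27ac contrast also 0.5, and p = 1 for chromosome 3 H3K36me3 and the H3K36me3 contrast. That block cannot give a p under 0.5. The RefSeq spans, chosen after seeing the data, moved only Gbp8 and Gbp9 among single members. The lists carry no signal, so the number of tags bears on these values only through which regions were called.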
